A study of Mus musculus with 24 samples.

Results

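Cd68, Ms4a7, Trem2, Wfdc17, Hpgds, Cd300a and Heph are 7 of the 37606 genes counted in RNA from mouse aorta, chosen by their own values: each was higher after angiotensin II at both early times of the study. Osmotic minipumps had delivered angiotensin II (Ang II), a vasoconstrictor hormone used to make mice hypertensive, or only vehicle (sham) under the skin of wild-type mice over 2 weeks. The aorta was then collected 2, 4 or 6 months afterwards and homogenised, which gives 6 groups of 4 libraries: sham and Ang II at 2 months, at 4 months and at 6 months. All groups shared the wild-type genotype, and the strain, sex and age are not stated in the labels. The labels do not say that replicates are separate animals, so p-values measure only how these samples spread, and that spread may be technical. With edgeR's quasi-likelihood test, calling a gene at a Benjamini-Hochberg adjusted p under 0.05, these 7 were the genes called higher at both 2 and 4 months among 15858 tested at both, and 0 genes were called lower at both. The values at 2 and 4 months therefore chose the genes and are given as a description. The comparison at 6 months shares no library with the choice and is tested. Those between 4 and 2 months within a treatment are other contrasts on the same libraries that chose the genes. Their tests are therefore not independent of the choice.

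Macrophages are phagocytes that reside in the outer wall of the artery and in the fat around it, and monocytes from the blood add to them when the wall is injured. They take up dying cells and lipid, digest them in lysosomes, and tune inflammation through activating and inhibitory surface receptors and secreted mediators. Trem2 encodes a lipid-sensing receptor that signals through the adaptor Tyrobp, Cd300a an inhibitory receptor for lipids exposed on dying cells, and Ms4a7 a membrane-spanning protein of the MS4A family found in mature macrophages. Cd68 encodes a heavily glycosylated protein of lysosomal and endosomal membranes, a standard macrophage stain. Wfdc17 encodes a small secreted protein with a whey acidic protein domain made by activated macrophages. Hpgds is the glutathione-dependent synthase of prostaglandin D, found in macrophages and also in mast cells and some T cells. Heph encodes hephaestin, a copper-dependent iron oxidase best known from the gut lining, and it is not a standard macrophage marker.

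The promoters of genes that were high together are shown for the letters they hold. RefSeq (GRCm38.p6) gave promoter windows, of 300 bases around a transcription start, for 6 of the 7 genes, with a second start for Ms4a7, and no entry for Heph. The letters GGAAGT, the ETS core that the macrophage factor PU.1 can bind, were searched on both strands and lay in 3 of their 7 windows (of Cd68, Hpgds and Ms4a7), 42.9%, against 23.8% of all 32851 windows. The letters TGANTCA, a loose form of the AP-1 site with any base at N, also lay in 3 of the 7 windows (of Cd68, Trem2 and Ms4a7), against 7.81% of all windows. Both matches in Cd68 read TGAGTCA, while that in Trem2 reads TGAATCA. The match in Ms4a7 reads TGATTCA and lies at its other start, which is not printed below. The E-box CACGTG lay in 0 of the 7 windows, against 7.15%. For Cd68, Hpgds, Trem2 and the start of Ms4a7 that holds GGAAGT, 150 bases before to 20 after the start follow, 5′ to 3′ on the gene's strand, with matches to the first motif, read on either strand, and to the second in capitals. They stand at chr11:69666151-69666320 on the minus strand for Cd68, chr6:65144711-65144880 on the minus strand for Hpgds, chr19:11336127-11336296 on the minus strand for Ms4a7 and chr17:48346251-48346420 on the plus strand for Trem2.
Cd68: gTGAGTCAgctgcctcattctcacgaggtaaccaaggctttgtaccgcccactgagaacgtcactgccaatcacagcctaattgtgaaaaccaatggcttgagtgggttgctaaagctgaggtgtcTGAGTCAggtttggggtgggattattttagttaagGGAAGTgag
Hpgds: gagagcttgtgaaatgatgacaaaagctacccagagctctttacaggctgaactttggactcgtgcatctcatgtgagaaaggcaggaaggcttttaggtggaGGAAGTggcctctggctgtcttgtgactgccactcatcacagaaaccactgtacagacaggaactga
Ms4a7: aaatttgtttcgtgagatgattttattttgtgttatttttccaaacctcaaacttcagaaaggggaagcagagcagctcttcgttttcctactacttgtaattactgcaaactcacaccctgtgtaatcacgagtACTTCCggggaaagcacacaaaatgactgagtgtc
Trem2: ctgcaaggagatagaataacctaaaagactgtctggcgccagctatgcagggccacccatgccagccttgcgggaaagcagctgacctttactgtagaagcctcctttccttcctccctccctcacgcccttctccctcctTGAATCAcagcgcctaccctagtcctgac
The first base of GGAAGT lies at position 12 after the start of Cd68, -47 for Hpgds and -15 for Ms4a7. Cd68 holds TGANTCA at -149 and -24, and Trem2 at -9. The windows of Wfdc17 and Cd300a hold none of the 3 motifs. A match describes letters only, since no binding was measured.

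Depth ranged from 19.16 to 58.68 counts per library in units of 1e6. The 8 libraries at 6 months stand apart from the other 16: chromosome M took 31.75% to 59.31% of their counts, against 7.72% to 16.32% earlier, so months after infusion and kind of library cannot be told apart between 6 months and the earlier times. The lowest TMM factor, 0.345, belonged to Ang II replicate 4 at 6 months, and the fold changes of the 7 genes at 6 months are given with and without it. Levels are in CPM, counts per 1e6 after TMM scaling over all 24 libraries, and fold changes come from edgeR on the 8 libraries of each comparison. As a check of the tissue, summed markers of contractile smooth muscle (12 genes) ranged from 588 to 6570 CPM and of endothelium (8 genes) from 612 to 1078 CPM, and none of these genes was at 0 in a whole group. Adipocyte markers (10 genes) summed to 12139 to 21861 CPM at 2 and 4 months and to 5371 to 7807 CPM at 6 months, without overlap.

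The lysosomal gene Cd68 (ENSMUSG00000018774.13, build mm10, chromosome 11, 69664213 to 69666153, minus strand) had the highest mean level of the 7 per kilobase of exon in sham aortas at 2 and 4 months and in Ang II aortas at 2 months. In replicates 1 to 4 it stood at 7.57, 9.32, 6.70 and 15.5 CPM in sham and at 30.4, 31.1, 25 and 22.2 CPM after Ang II at 2 months. At 4 months the sham values were 7.82, 7.39, 9.47 and 10.1 CPM and the Ang II values 23.4, 30.4, 33.1 and 29.5 CPM. Every Ang II library lay above every sham library at both times, and sham replicate 4 at 2 months came nearest to the Ang II range. At 6 months the values were 14.3, 15.2, 10.5 and 10.6 CPM in sham and 8.77, 7.54, 8.72 and 14.8 CPM in Ang II aortas. There 3 of 4 Ang II libraries lay below every sham library and replicate 4 lay among them. The Ang II aortas held 2.84-fold the sham level at 2 months and 3.39-fold at 4 months, and 0.784-fold at 6 months (95% interval 0.535 to 1.15; edgeR adjusted p = 1.0). Without Ang II replicate 4 the log2 fold change at 6 months went from -0.35 to -0.59 (edgeR adjusted p = 0.912).

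The receptor gene Trem2 (ENSMUSG00000023992.14, chromosome 17, 48346401 to 48354147, plus strand) was low in sham aortas, at 1.51, 1.88, 2.21 and 2.38 CPM at 2 months and 2.03, 1.86, 1.63 and 2.29 CPM at 4 months. After Ang II it stood at 7.73, 4.75, 4.67 and 4.81 CPM at 2 months and at 6.79, 4.37, 6.87 and 4.63 CPM at 4 months. The groups did not overlap at either time, and Ang II replicate 1 at 2 months stood well above its group. At 6 months it stood at 4.73, 2.21, 1.97 and 2.88 CPM in sham and at 1.77, 1.71, 2.03 and 5.24 CPM in Ang II aortas. One library was high in each of these groups, sham replicate 1 and Ang II replicate 4. The log2 fold changes were 1.48 (SE 0.251) at 2 months, 1.55 (SE 0.213) at 4 months and -0.14 (95% interval -1.13 to 0.85; edgeR adjusted p = 1.0) at 6 months. The direction at 6 months rested on single libraries: it was -0.65 without Ang II replicate 4 and 0.14, 0.03 and 0.09 without sham replicate 1, Ang II replicate 1 and Ang II replicate 2 (edgeR adjusted p from 0.912 to 1.0).

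The inhibitory receptor gene Cd300a (ENSMUSG00000034652.12, chromosome 11, 114890041 to 114904654, plus strand) showed 2.18, 2.47, 1.86 and 2.42 CPM in sham and 4.81, 8.16, 6.86 and 6.27 CPM after Ang II at 2 months. At 4 months it showed 4.22, 2.65, 2.10 and 4.38 CPM in sham. The Ang II libraries at 4 months were the tightest group of any of the 7 genes, at 8.79, 8.32, 8.50 and 8.49 CPM. Neither early comparison overlapped. At 6 months sham aortas held 7.54, 6.87, 5.47 and 5.0 CPM and Ang II aortas 5.33, 4.77, 4.07 and 7.32 CPM, which overlap. The fold changes were 2.98 and 2.58 at the early times, and 0.862 at 6 months (95% interval 0.601 to 1.24; edgeR adjusted p = 1.0). Without Ang II replicate 4 the log2 fold change at 6 months went from -0.21 to -0.39 (edgeR adjusted p = 0.922).

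The tetraspan gene Ms4a7 (ENSMUSG00000024672.11, chromosome 19, 11321039 to 11336146, minus strand) stood at 1.69, 1.44, 1.93 and 2.83 CPM in sham and at 6.21, 7.83, 5.36 and 4.95 CPM after Ang II at 2 months. At 4 months it stood at 2.15, 1.77, 1.22 and 2.19 CPM in sham and at 8.23, 6.80, 7.26 and 7.60 CPM in Ang II aortas. Both comparisons left a clear gap between the groups, and counts behind the sham values were as low as 29 reads. At 6 months the sham libraries read 4.56, 4.40, 3.35 and 2.50 CPM and the Ang II libraries 3.53, 3.02, 2.91 and 2.39 CPM. The fold changes were 3.16 and 4.12, and then 0.802 at 6 months (95% interval 0.549 to 1.17; edgeR adjusted p = 1.0). In log2 terms the value at 6 months was -0.32, and -0.22 without Ang II replicate 4.

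The secreted-protein gene Wfdc17 (ENSMUSG00000069792.5, chromosome 11, 83703991 to 83706268, plus strand) had the largest fold change of the 7 at both early times, 3.53 and 4.61. Its values were 2.08, 2.98, 2.97 and 3.40 CPM in sham and 11, 8.97, 9.69 and 10.1 CPM in Ang II aortas at 2 months, and 2.65, 2.56, 1.93 and 3.58 against 10.5, 13.2, 15.7 and 9.73 CPM at 4 months. At 6 months both groups spread widely, with 15.3, 7.81, 6.04 and 7.03 CPM in sham and 4.37, 7.95, 6.13 and 12.8 CPM in Ang II aortas. Its log2 fold change at 6 months was -0.20 (95% interval -1.06 to 0.66; edgeR adjusted p = 1.0), and it was 0.13 without sham replicate 1, 0.00 without Ang II replicate 1 and -0.53 without Ang II replicate 4 (edgeR adjusted p from 0.923 to 1.0).

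The prostaglandin D synthase gene Hpgds (ENSMUSG00000029919.5, chromosome 6, 65117293 to 65144908, minus strand) stood at 1.80, 2.40, 2.11 and 2.95 CPM in sham and at 7.14, 7.45, 4.25 and 6.65 CPM after Ang II at 2 months. At 4 months the values were 1.76, 1.63, 1.43 and 2.45 CPM in sham and 6.06, 5.57, 6.48 and 6.03 CPM in Ang II aortas. Again the groups were apart at both times. At 6 months sham aortas held 6.92, 5.03, 4.07 and 3.78 CPM and Ang II aortas 5.30, 4.77, 3.0 and 3.70 CPM. The fold changes were 2.81, 3.35 and 0.850 (at 6 months 95% interval 0.571 to 1.27; edgeR adjusted p = 1.0). In log2 terms the value at 6 months was -0.23, and -0.18 without Ang II replicate 4.

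Heph (ENSMUSG00000031209.14, chromosome X, 96455359 to 96574485, plus strand), the iron oxidase gene, differed from the other 6 in size of effect and in level. It stood at 28.2, 24.2, 23.6 and 24.9 CPM in sham and at 33.7, 31.1, 36.7 and 35.2 CPM in Ang II aortas at 2 months, and at 19.9, 20.9, 21.7 and 23.4 against 28.6, 27.7, 33.3 and 29.1 CPM at 4 months. The fold changes were 1.38 and 1.40, while those of the other 6 ranged from 2.58 to 4.61. At 6 months sham aortas were close together at 31.3, 28.5, 29.6 and 31.6 CPM, and Ang II aortas ranged from 18.7 in replicate 4 over 20.8 and 31.0 to 37.1 CPM. The log2 fold change there was -0.17 (95% interval -0.63 to 0.28; edgeR adjusted p = 1.0) and -0.03 without replicate 4. Exons of Heph overlap those of Hsf3 on the opposite strand, where the highest count in any library was 45, against at least 243 for Heph, and whether counting used strand is not given in the sources used here.

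**Figure D1:**
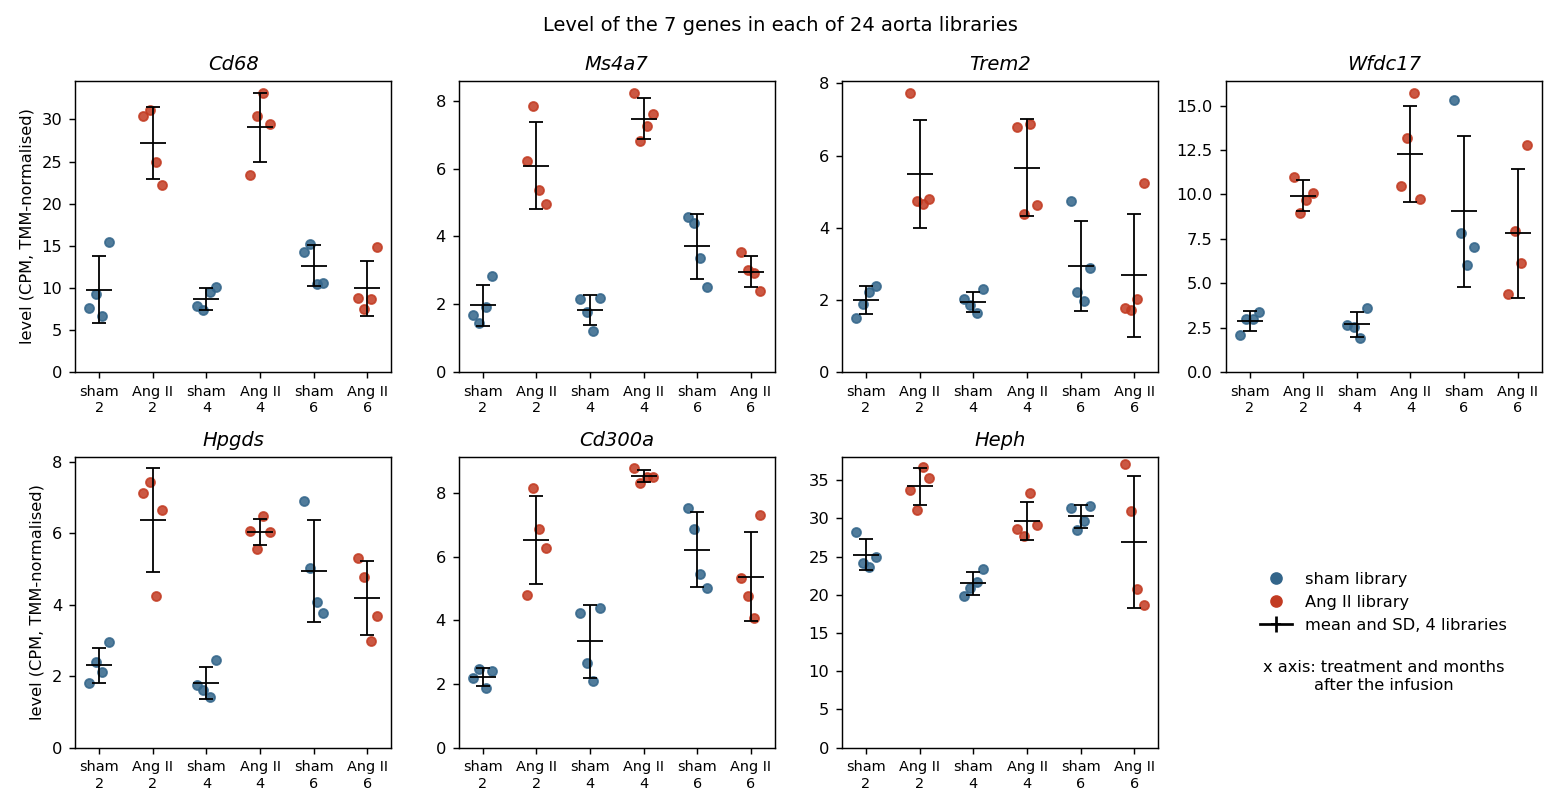
Level of each of the 7 genes in CPM (y axes start at 0) in each of 24 libraries, by treatment and months after the infusion. Points are libraries, blue for sham and red for Ang II, and bars are the mean and SD of 4. At 2 and 4 months every red point lies above every blue one in all 7 panels, and at 6 months the groups overlap in all 7.

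In a homogenate, more macrophages and more RNA of these genes per macrophage cannot be told apart. Ordered by mean level under TMM scaling, Ang II at 4 months stood first and Ang II at 2 months second for Cd68, Ms4a7, Trem2, Wfdc17 and Cd300a, and these neighbours overlapped for all but Cd300a. For Hpgds the order of these 2 groups was the other way round, with overlap. For Cd68 and Ms4a7 the 2 early Ang II groups lay clear of the next group, sham at 6 months, while for Trem2, Wfdc17, Hpgds and Cd300a the Ang II group at 2 or 4 months next to it overlapped it. Sham at 4 months was the lowest group for 6 genes, and sham at 2 months for Cd300a. Heph alone had sham at 6 months (30.3 ± 1.46 CPM, SD, n = 4) between Ang II at 2 months (34.2 ± 2.38 CPM) and Ang II at 4 months (29.7 ± 2.49 CPM), each overlapping the next. The place of the groups at 6 months in these orders depends on the scaling. By plain total count Heph in sham at 6 months stood at 22.6 CPM, below sham at 2 months (30.6 CPM) and sham at 4 months (24.6 CPM). With chromosome M counts left out it was above both, at 1.17-fold sham at 2 months and 1.38-fold sham at 4 months.

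Levels were also divided by exon length, counted over all annotated exons of a gene merged. The order depends on that divisor: in sham aortas at 2 months Wfdc17, with 533 bases, stood at 2.86 CPM, near Hpgds at 2.31 CPM. In sham aortas at 2 months Cd68 stood at 7.77 ± 3.16, Wfdc17 at 5.36 ± 1.05 and Heph at 3.29 ± 0.270 CPM per kilobase (SD, n = 4). The other 4 stood between 0.360 CPM per kilobase for Hpgds and 0.471 for Cd300a. After Ang II at 4 months Cd68 and Wfdc17 were level with each other, at 23.2 ± 3.25 and 23 ± 5.09 CPM per kilobase. Heph stood at 3.87 ± 0.325 there and the other 4 between 0.940 for Hpgds and 1.80 for Cd300a.

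Ang II against sham at 6 months asks whether the early differences were present later, in libraries that did not choose the genes. edgeR called 0 of the 7 genes, and 0 of 19343 genes in all (0%). An unadjusted p under 0.05 was reached by 976 genes (5.05%) and by 0 of the 7, whose unadjusted p ranged from 0.183 for Cd68 to 0.763 for Trem2 (edgeR). DESeq2 called 63 genes at 6 months and 0 of the 7. All 7 log2 fold changes lay below 0, from -0.35 to -0.14, with a median of -0.21 beside -0.03 over all genes tested. Groups overlapped for each of the 7, while the Ang II libraries lay all above for 1.33% of genes and all below for 1.56%. The intervals at 6 months reach up to 0.20 on the log2 scale for Cd68, 0.23 for Ms4a7, 0.28 for Heph and 0.30 for Cd300a. They reach up to 0.34 for Hpgds, 0.66 for Wfdc17 and 0.85 for Trem2. The early values were selected for being high, so these limits are not weighed against them. The intervals do not show that the groups were alike. The difference between times was not tested, because the early values chose the genes and the libraries at 6 months were of another kind.

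**Figure D2:**
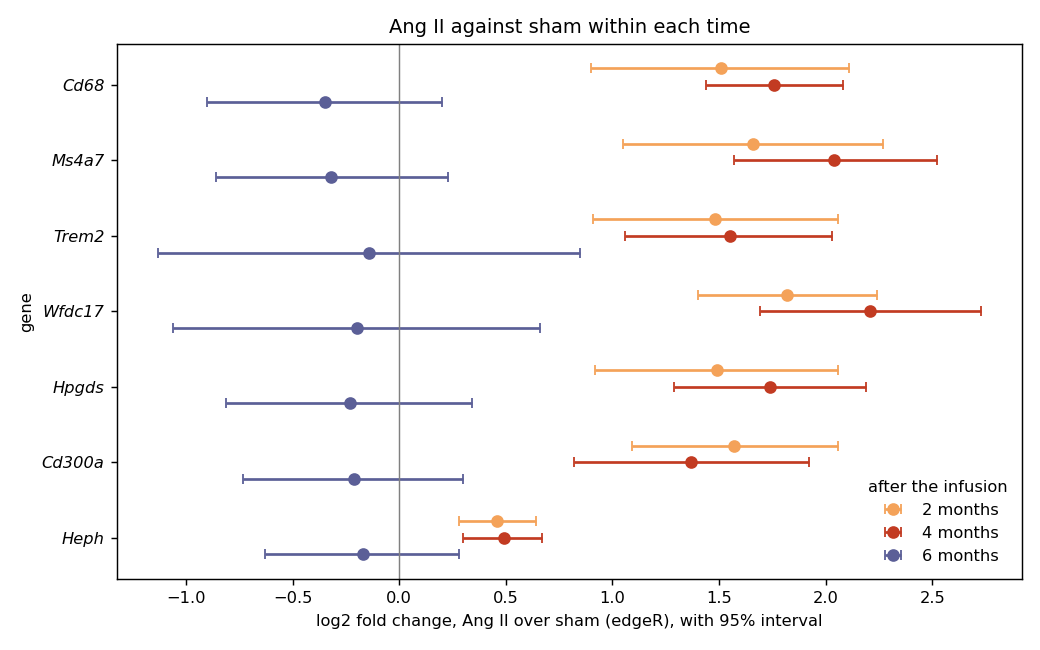
Log2 fold change of Ang II over sham (x axis) for each gene (y axis) at 2, 4 and 6 months, with the 95% interval from edgeR on 8 libraries. The values at 2 and 4 months chose the genes and lie between 0.46 and 2.21, and those at 6 months lie between -0.35 and -0.14 with intervals that include 0.

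At 2 months 61 of 16421 genes were called higher (0.371%), these 7 among them by choice, and at 4 months 23 of 16127 (0.143%). Called lower were 1.44% of genes at 2 months and 0.564% at 4 months. All Ang II libraries lay above all sham libraries for 2.38% of genes at 2 months and 3.22% at 4 months, and below them for 5.51% and 7.02%. An unadjusted p under 0.05 was reached by 10.8% and 15.5% of genes. Cd300a and Heph stood just inside the threshold at 4 months, with adjusted p of 0.0498 and 0.0460 by edgeR. Just outside stood Ccl8, a chemokine gene that draws monocytes, with log2 fold changes of 2.11 and 2.81, and Mpeg1, a pore-forming protein of phagocytes, with 1.34 and 1.40. Their larger edgeR adjusted p over the 2 times was 0.0575 and 0.0633. In the authors' deposited tables, made with another test, 43 genes were higher and 19 lower at both times at an adjusted p under 0.05, and the 43 hold all 7. Of those 43, 37 had a log2 fold change below 0 at 6 months in the authors' deposited table, and 0 were called higher there. The share of all genes below 0 in that table was not counted. By edgeR 8750 of all 19343 genes tested at 6 months lay above 0, and 0 were called.

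The calls at the early times depended on single libraries, while the fold changes moved little. With 1 library left out at a time, the lowest and highest log2 fold changes at 2 months were 1.36 and 1.82 for Cd68, 1.27 and 1.58 for Trem2, 1.69 and 1.91 for Wfdc17 and 0.43 and 0.51 for Heph. At 4 months they were 1.69 and 1.85 for Cd68, 1.44 and 1.64 for Trem2, 2.07 and 2.38 for Wfdc17 and 0.44 and 0.53 for Heph. At 2 months all 7 were still called without sham replicate 4. The number called was 1, 3 and 4 without sham replicates 1, 2 and 3, and 4, 2, 3 and 2 without Ang II replicates 1, 2, 3 and 4. Wfdc17 was called in 8 of these 8 fits, Cd300a in 7, Ms4a7 in 4, Trem2 in 3, Hpgds in 2, and Cd68 and Heph in 1. At 4 months all 7 were called without sham replicate 4, 0 without sham replicates 1 or 2, 2 without sham replicate 3, 1 without Ang II replicate 1 and 0 without Ang II replicates 2, 3 or 4. Cd68 was called in 3 of these 8 fits, Ms4a7 in 2 and the other 5 in 1.

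**Figure D3:**
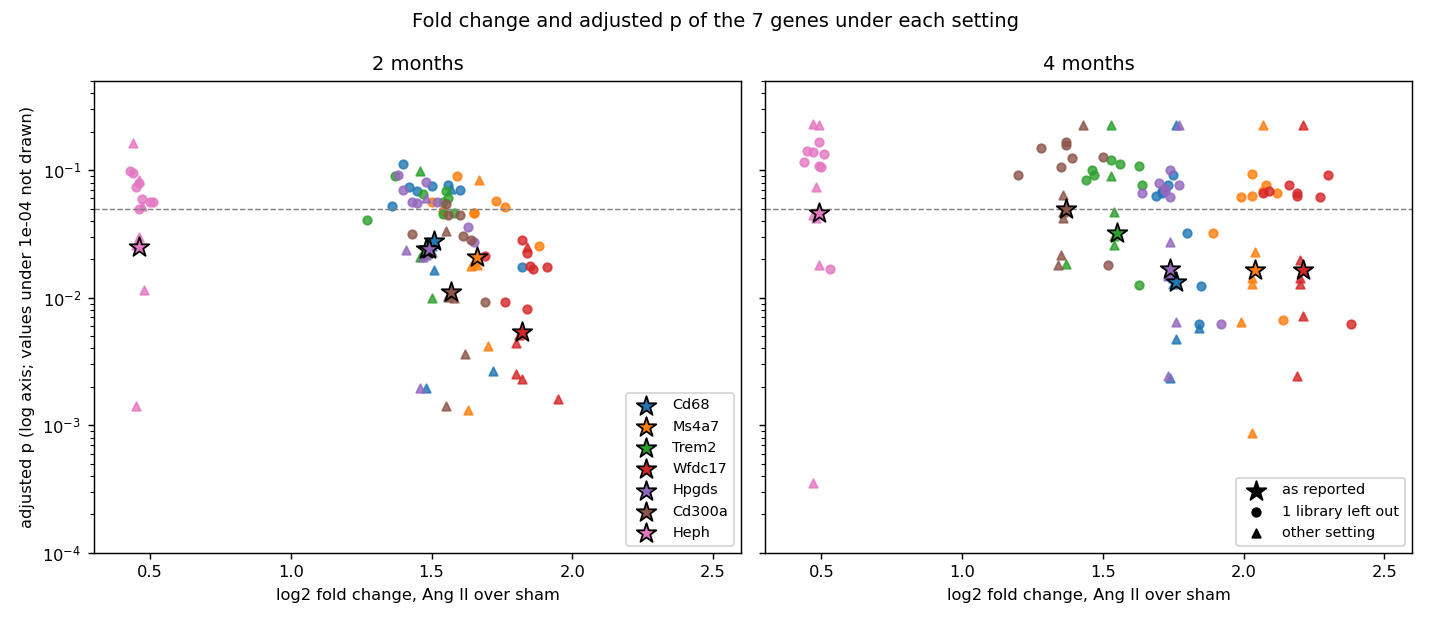
Log2 fold change (x axis) and edgeR, DESeq2 or limma adjusted p (y axis, log scale, values under 1e-04 not drawn) of each gene at 2 and 4 months. Stars are the values as reported, circles fits without 1 library and triangles other settings, and the dashed line is 0.05. Points of a gene stay within a narrow range of fold change and cross the dashed line, except those of Wfdc17 at 2 months, which all lie below it.

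Between 4 and 2 months, within a treatment, 0 of the 7 genes were called. The same libraries chose the genes, so this is not an independent test of them. In sham aortas edgeR called 0 genes higher and 1 lower of 16144 (0.00619%), while 2549 (15.8%) had an unadjusted p under 0.05. DESeq2 called 736 genes there and 0 of the 7. Heph was nearest, with 4 of 4 sham libraries at 4 months below all at 2 months (log2 fold change -0.26, SE 0.0863, edgeR adjusted p = 0.203), an order seen downward for 6.11% of genes and upward for 3.30%. Cd300a stood at 0.55 (95% interval -0.08 to 1.19, edgeR adjusted p = 0.375), and the other 5 between -0.37 and -0.06. After Ang II edgeR called 1 gene higher of 16367 (0.00611%) and 0 lower, with 1751 (10.7%) at an unadjusted p under 0.05. DESeq2 called 265 genes and again 0 of the 7. Cd300a had 4 of 4 libraries at 4 months above all at 2 months (log2 fold change 0.39, 95% interval -0.02 to 0.79, edgeR adjusted p = 0.487), an order seen upward for 2.50% of genes and downward for 3.49%. Heph stood at -0.19 (95% interval -0.36 to -0.03, edgeR adjusted p = 0.425), and the other 5 between -0.08 and 0.31.

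Sham levels at 6 months were above those at 2 months for all 7 genes under TMM scaling, from 1.20-fold to 3.16-fold. With chromosome M counts left out they were above for 7 of 7, from 1.17-fold to 3.08-fold. With plain CPM by total count, which includes chromosome M, they were above for 4 of 7, from 0.739-fold to 1.83-fold. The highest ratio, 3.16, belonged to Wfdc17, whose mean went from 2.86 ± 0.557 CPM in sham aortas at 2 months to 9.04 ± 4.23 CPM at 6 months (SD, n = 4). From Ang II at 4 months to Ang II at 6 months 0 of 7 genes were higher under any of these scalings. No test was made of these steps, since time and kind of library cannot be told apart there.

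Set beside the median of general macrophage genes, the early difference was larger in 6 of the 7. The 7 were chosen by these same values and the list was not, so a larger difference is built into the choice. A list of 20 pan-macrophage genes had a median log2 fold change of 0.67 at 2 months, 0.83 at 4 months and -0.35 at 6 months, beside 0.01, 0.04 and -0.03 over all genes tested. All 20 lay above 0 at both early times, and the groups did not overlap for 8 and 12 of them. Only 1 of 20 was called higher at each early time: Adgre1, the F4/80 antigen gene, at 2 months (0.98, edgeR adjusted p = 0.0202) and Mpeg1 at 4 months (1.40, edgeR adjusted p = 0.0401). Summed over the list, sham libraries held 452 to 728 CPM and Ang II libraries 778 to 1332 CPM at 2 months, and 542 to 818 against 921 to 1525 CPM at 4 months, with no overlap. At 6 months the sums were 900 to 1435 CPM in sham and 774 to 1263 CPM in Ang II aortas.

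Each gene's log2(CPM + 1) less the mean of the same value over these 20 genes gives its level relative to them. For Cd68 the difference between Ang II and sham in this relative level was 0.82 at 2 months, 0.88 at 4 months and -0.01 at 6 months, and the groups did not overlap at the early times. For Wfdc17 it was 0.89, 1.09 and 0.14, and for Ms4a7 0.64, 0.84 and 0.10, again without overlap early on. Cd300a gave 0.58 and 0.42 at the early times without overlap, and Hpgds 0.52 with overlap and 0.58 without. Trem2 gave 0.48 and 0.40 and overlapped at both times. Heph went the other way, at -0.19 and -0.31 with overlap. These values rest on the same libraries that chose the genes and carry no test.

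**Figure D4:**
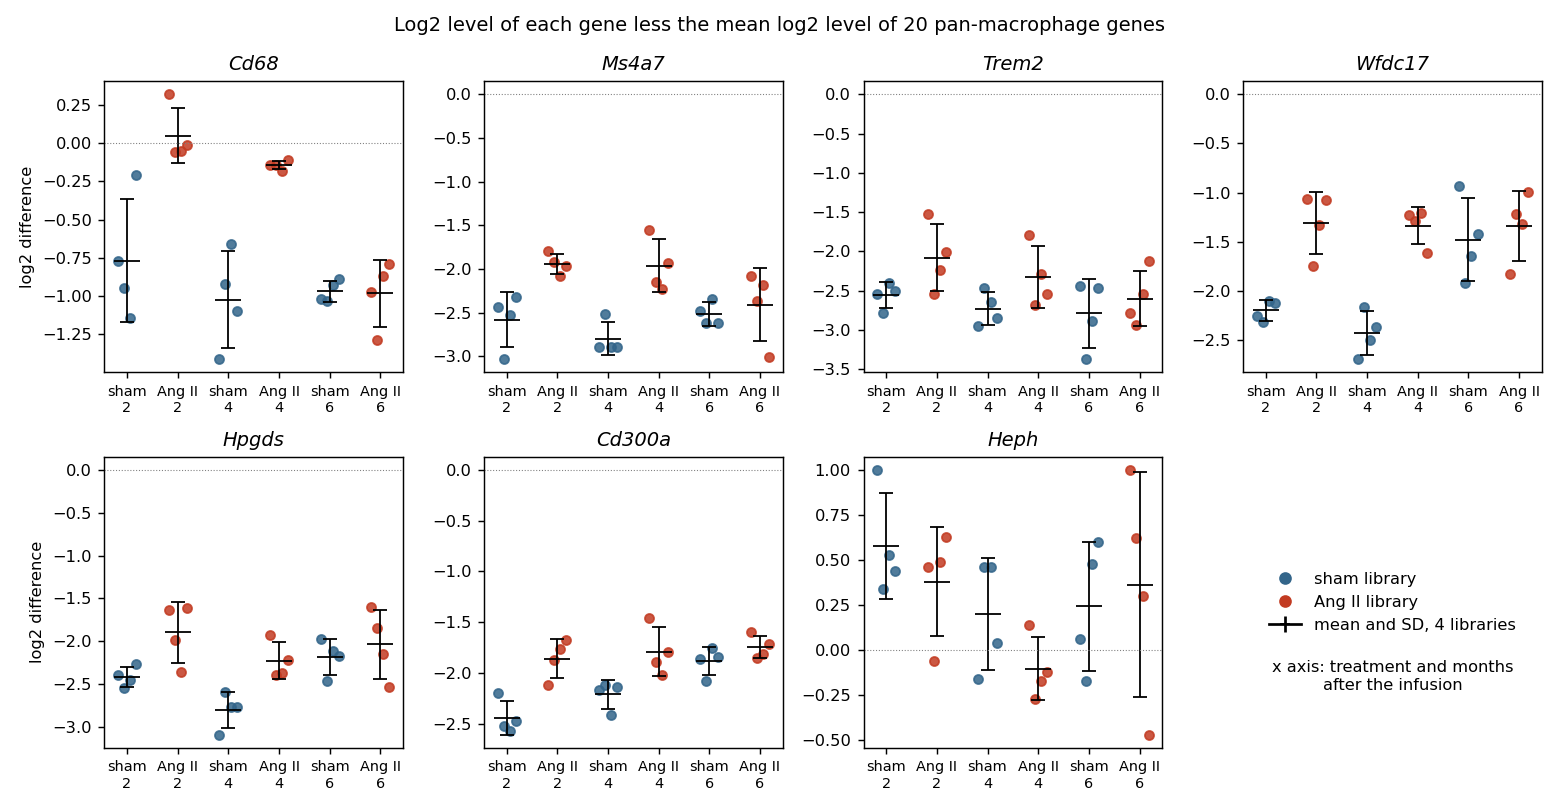
Log2(CPM + 1) of each gene less the mean log2(CPM + 1) of 20 pan-macrophage genes (y axes) in each library, with mean and SD of 4 libraries. Red points (Ang II) lie above blue ones (sham) at 2 and 4 months for Cd68, Ms4a7, Wfdc17 and Cd300a, they overlap for Trem2 and Heph, and all 7 genes overlap at 6 months.

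Pathways around single members were followed with lists. Around Trem2, 12 genes of its signalling (adaptors, kinases and shedding proteases) had medians of 0.77, 0.66 and -0.47 at 2, 4 and 6 months, and 0 were called at any time. The lipid-associated macrophage programme that Trem2 is known to drive (24 genes) had medians of 0.24, 0.39 and -0.08. Of these genes 1 was called: Cd9, a tetraspanin also made by other cells, was lower at 2 months (-0.70, edgeR adjusted p = 0.0376). At 4 months 7 of the 24 lay all above sham and 3 all below, beside 3.22% and 7.02% of all genes. The list summed to 10078 to 12262 CPM in sham aortas at 2 months, far above the 452 to 728 CPM of the pan-macrophage list. Which cells gave that RNA was not tested. The lysosome list (27 genes), where Cd68 protein resides, stayed at 0.05, 0.03 and -0.09 with 0 called. Other MS4A genes had medians of 0.59, 0.60 and -0.17 (10, 9 and 11 of 14 tested) and other CD300 genes 0.80, 0.93 and -0.45 (4, 5 and 5 of 7 tested), with 0 called in either family. Around Hpgds, 17 tested genes of prostanoid synthesis and reception had medians of 0.04, 0.04 and -0.03, and Ptgis, the prostacyclin synthase, was lower at 2 months (-2.19, edgeR adjusted p = 0.00968). Around Heph, the iron handling list stood at 0.13, 0.03 and -0.07 with 0 of 17, 17 and 18 tested genes called. Around Wfdc17, other WFDC genes (4 of 8 tested at each time) had medians of -0.44, 1.75 and -0.13, with 2, 3 and 0 of the 4 above 0. Of these Wfdc1 was called lower at 2 months (-1.87, edgeR adjusted p = 0.0106), and 0 were called at 4 or 6 months.

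Markers of macrophage subsets gave smaller medians than the pan-macrophage list at the early times. Resident and perivascular markers (16 genes) had medians of 0.40, 0.55 and -0.20, with Ccl8 called higher at 2 months (2.11, edgeR adjusted p = 0.0297). Monocyte and inflammatory markers had medians of 0.46, 0.31 and -0.38 over 11, 11 and 12 tested of 16, with Vcan, a matrix proteoglycan, called lower at 2 months (-1.14). Scavenger receptors (15 genes) had medians of 0.31, 0.46 and -0.20 with 0 called. Of 16 macrophage transcription factor genes, with medians of 0.44, 0.16 and 0.00, Cebpb was higher (1.59, edgeR adjusted p = 0.00286) and Bhlhe41 lower (-1.06, edgeR adjusted p = 0.0126) at 2 months.

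**Figure D5:**
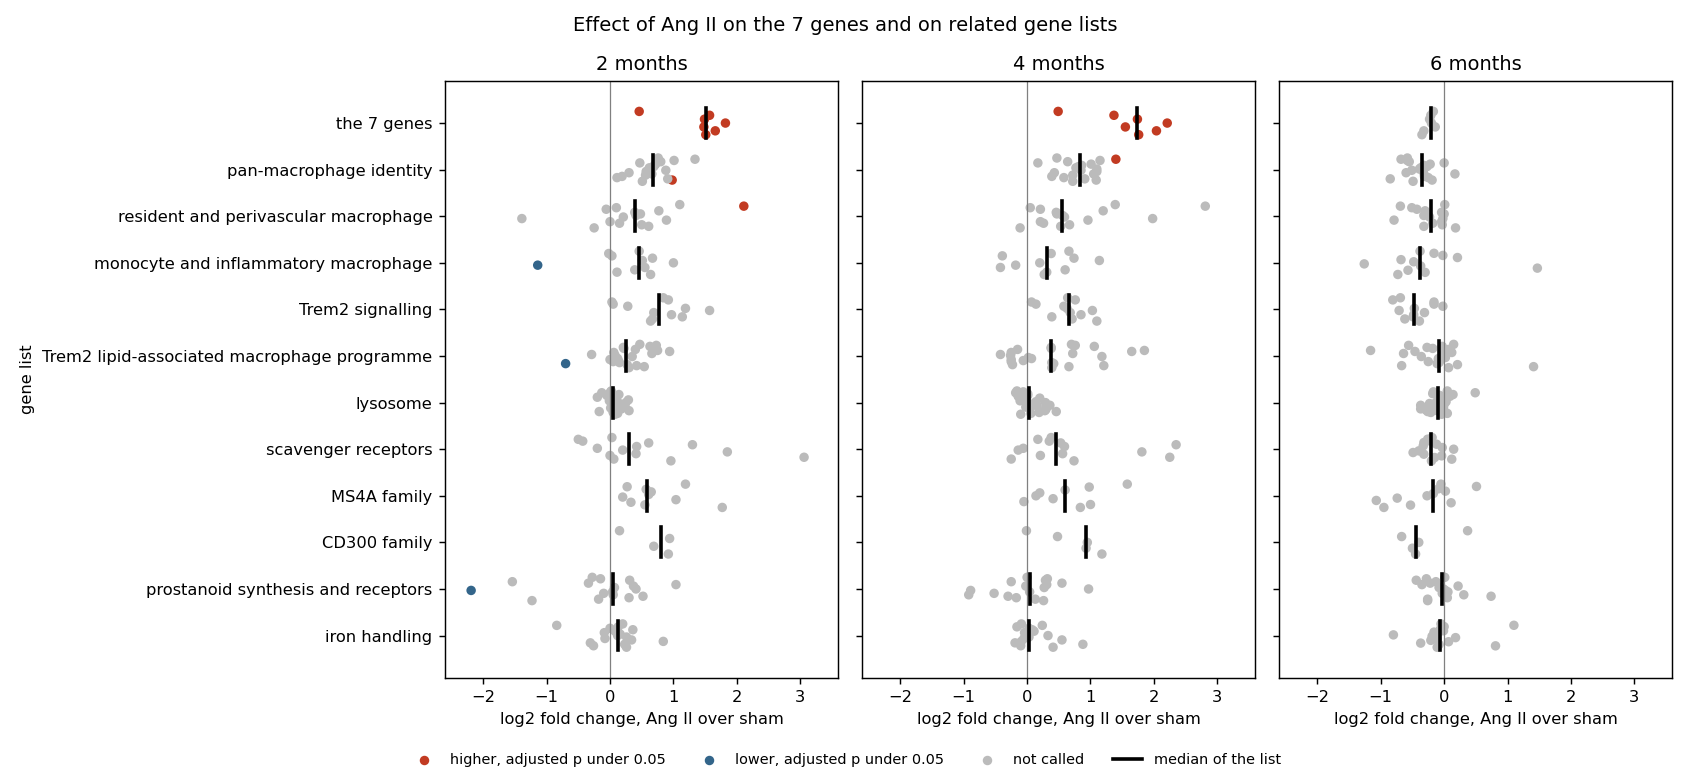
Log2 fold change of Ang II over sham (x axis) for the 7 genes and for 11 gene lists (y axis) at 2, 4 and 6 months. Points are genes, red if called higher, blue if called lower and grey if not called by edgeR, and bars are list medians. The bar of the 7 genes stands at 1.51, 1.74 and -0.21, and that of the pan-macrophage list at 0.67, 0.83 and -0.35.

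Some markers of other cells moved with the early comparison. Of 12 contractile smooth muscle genes 10 were called lower after Ang II at 2 months, and their sum was 3531 to 6570 CPM in sham and 886 to 1740 CPM in Ang II aortas, with none of the 12 at 0. At 4 months 0 of the 12 were called and the sums overlapped (747 to 2638 CPM in sham, 588 to 957 CPM in Ang II aortas). The median log2 fold change of the 12 was -1.93 at 2 months and -0.70 at 4 months. Sham aortas at 4 against 2 months, without Ang II, had a median of -2.03 for these 12 genes, with 0 called. There 10 of the 12 lay lower without overlap, beside 6.11% of all genes. Sham at 2 months was the highest group, and no library of the other groups summed above 2638 CPM. Mast cell markers, of interest for Hpgds, had 0 of 9 called at 2 months and 0 of 8 at 4 months, with overlapping sums (82.6 to 148 against 89.9 to 110 CPM, then 78.5 to 99.2 against 69.2 to 112 CPM). B cell markers had 0 of 8 called at either time, but all 8 lay above 0 at 2 months with a median log2 fold change of 1.40, beside 1.51 for the 7 genes, and 7 of 8 at 4 months with a median of 0.54. Their sums overlapped, at 123 to 798 CPM in sham and 302 to 1641 CPM in Ang II aortas at 2 months. Airway and lung epithelium markers (12 genes), which do not belong to the aorta, summed to 37.4 to 9058 CPM in sham and to 91.5 to 2401 CPM in Ang II aortas at 2 months, with 0 called of 11 tested and a median log2 fold change of -0.92. At 4 months the sums were 49.3 to 1570 and 93.5 to 6121 CPM, with 0 called and 10 of 11 above 0 at a median of 2.09, beside 1.74 for the 7 genes. The alveolar macrophage list (10 genes, of which some are also made by fat cells) had 0 of 7 tested genes called at either time, with sums of 913 to 1097 against 1209 to 1584 CPM at 2 months and 1256 to 1575 against 1441 to 1873 CPM at 4 months. Medians at 2 and 4 months were 0.47 and 0.36 for neutrophil, 0.33 and 0.65 for dendritic cell, and 0.31 and 0.27 for T and NK cell markers, with 0 called in these lists. Adipocyte markers had medians of 0.17 and -0.23 with 0 called. At 4 months 4 of the 10 lay all below sham and 0 all above, beside 7.02% and 3.22% of all genes. Fibroblast markers had medians of -0.06 and 0.15, with 1 of 9 called lower at 2 months. Endothelium markers had medians of -0.09 and -0.01, with 1 of 8 called higher at 2 months. In both lists 0 were called at 4 months. The part of these cells in the values of the 7 genes was not tested.

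Within groups the 7 genes varied together only in part. Taken as deviations of log2(CPM + 1) from the group mean over 24 libraries, the 15 pairs without Heph had correlations from 0.10 to 0.78 with a median of 0.42. The closest pairs were Trem2 with Wfdc17 (Pearson 0.78, Spearman 0.65) and Ms4a7 with Hpgds (0.68 and 0.70). Trem2 and Ms4a7 were hardly related (0.10 and 0.12). Heph had a median of -0.23 with the other 6, from -0.38 with Trem2 to 0.33 with Hpgds. These points share library, depth and tissue makeup and describe these 24 libraries only.

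The genes outside the 7 whose deviations were most like the mean of the 7 were ranked by Pearson correlation over the 24 libraries. Ranked were 14109 named genes with a mean of at least 1 CPM, leaving out Gm and Rik symbols. First came Tyrobp, the adaptor through which Trem2 signals (0.86), Man2b1, a lysosomal mannosidase (0.85), and Msr1, the class A scavenger receptor (0.84). Next were Ntng2, Fcer1g, the shared gamma chain of Fc receptors, and Nfam1, an immunoreceptor, each at 0.84, then Emp3, Tbxas1, the thromboxane synthase, Adamts10 and Lrrc25, each at 0.82. Spearman values of these 10 ranged from 0.68 to 0.84. Without the 2 libraries farthest from the median, sham replicate 4 at 2 months and sham replicate 1 at 6 months, their Pearson values were 0.71 to 0.80. The pan-macrophage list had a median of 0.57, with 8 of 20 genes in the top 141, and all ranked genes a median of -0.01. Contractile smooth muscle genes had a median of 0.27, mast cell genes 0.54, airway genes -0.23 and adipocyte genes -0.25.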

How the data were processed

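RNA-seq libraries of mouse aorta (24, in 6 groups of 4) were analysed from the authors' deposited table of whole-number read counts for 37606 genes. Build mm10 and the tools cutadapt, STAR, featureCounts, FastQC and DESeq2 are named by the submitters' processing notes; tool versions, the annotation release and strand use were not given in the sources used here. For each comparison the authors also deposited a log2 fold change, a linear fold change as a ratio, and raw and adjusted p-values; all 479072 counts in those tables equal the count table.

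Counts were tested with edgeR 4.0.16 in R 4.3.3 (filterByExpr, minimum count 10 and total 15, TMM, quasi-likelihood F test, Benjamini-Hochberg over all genes tested, threshold 0.05), on the 8 libraries of each comparison. The procedure was tested on simulated data with planted changes. Depth was 19.16 to 58.68 counts per library in units of 1e6, and 29 reads was the lowest count of a member in a library. Alternatives were DESeq2 1.42.0, its size factors in edgeR, no filter on low counts, limma 3.58.1 voom with quality weights, a replicate block, chromosome M left out, all 24 libraries in 1 fit and leaving out each library. Symbols came from the deposited tables (23514) and GENCODE vM21 (14015), and 77 IDs had none. The 7 genes, the lists and the tests were chosen with earlier results of these data known. Besides the 7, the rule named up to 4 called genes per macrophage list and comparison, the 10 genes most alike over the libraries and the genes next to the threshold. Replicate numbers were not used to pair the samples in the main tests.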

Additional observations from a re-analysis of the deposited data

Results flagged for a closer look

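In 3 of 42 groups of 4 libraries 1 value stood apart from the other 3 by Dixon's test, where chance gives about 1 in 20. Trem2 in Ang II aortas at 2 months stood at 7.73 CPM in replicate 1, against 4.67, 4.75 and 4.81 CPM. Without that library its log2 fold change at 2 months was 1.27 in place of 1.48. Trem2 in Ang II aortas at 6 months stood at 5.24 CPM in replicate 4, against 1.71, 1.77 and 2.03 CPM. Cd68 in the same library stood at 14.8 CPM, against 7.54, 8.72 and 8.77 CPM. That library had the lowest TMM factor, 0.345, and 52.86% of its counts from chromosome M.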

How the results depend on the processing

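Of 105 values of the 7 genes under 15 other settings, 105 stayed above 0 at 2 months and 105 at 4 months. These values chose the genes, with no overlap between groups, so the sign was largely set by the choice. At 2 and 4 months 37 and 57 of the values no longer passed the threshold. At 6 months 99 of 105 kept their sign, and 0 passed. The number of genes called moved more. At 2 months, in place of 297, DESeq2 called 691, limma voom 629, and leaving out 1 library 78 to 255. At 4 months, in place of 114, the counts were 940 with DESeq2, 602 with limma voom, 40 without a filter on low counts, 214 without chromosome M, 11 with all 24 libraries in 1 fit and 0 to 674 leaving out 1 library. Of the 7 genes, 1 to 7 were called at 2 months and 0 to 7 at 4 months leaving out 1 library. At 6 months DESeq2 called 63 in place of 0. For sham at 4 against 2 months, in place of 1, DESeq2 called 736, limma voom 801, no filter 4 and leaving out 1 library 0 to 641. For Ang II at 4 against 2 months, in place of 1, DESeq2 called 265, limma voom 20, no filter 3, DESeq2 size factors 2 and leaving out 1 library 0 to 1. The cause of these moves was not tested, and leaving out 1 library changes both the number and the makeup of the libraries.

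Replicate numbers are shared between groups, but same-numbered libraries correlated from -0.34 to 0.56 in their deviations. Most did not correlate best with their own number. That check cannot exclude a pairing, since other differences between libraries enter the same deviations. With the replicate block 2 of the 7 genes were called at 2 months, 0 of the 7 and 0 genes in all at 4 months, and 140 genes for sham at 4 against 2 months.

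Signs changed only for uncalled values near 0. With limma voom they were 0.00 for Hpgds at 6 months, 0.06, 0.05 and 0.07 for Cd68, Ms4a7 and Trem2 in sham at 4 against 2 months, and -0.01 and 0.16 for Trem2 and Hpgds in Ang II at 4 against 2 months. Leaving out 1 library gave ranges across 0. At 6 months these were -0.65 to 0.14 for Trem2 and -0.53 to 0.13 for Wfdc17. In sham at 4 against 2 months they were -0.33 to 0.10 for Cd68, -0.23 to 0.08 for Ms4a7, -0.15 to 0.05 for Trem2 and -0.30 to 0.04 for Wfdc17. In Ang II at 4 against 2 months they were -0.07 to 0.24 for Trem2 and -0.25 to 0.00 for Hpgds. Counts of 29 to 66 reads for Ms4a7 in sham aortas at 4 months limit its precision there.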
